A study of Mus musculus with 12 samples.

Results

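The proteasome is the protease that removes ubiquitin-tagged proteins, and its constitutive subunits and activators were examined in livers of male mice given a vector for human GR beta. The genes were taken by name from the array design: every gene whose symbol begins with Psma, Psmb, Psmc, Psmd or Psme and a number, without the interferon-inducible Psmb8, Psmb9 and Psmb10. This gave 42 of the 28784 named genes or other features on the array, measured by 64 probes. They were 8 alpha subunits of the 20S core (Psma1 to Psma8), 8 beta subunits (Psmb1 to Psmb7 and Psmb11), 6 ATPases of the 19S cap (Psmc1 to Psmc6), 14 other proteins of the cap and its assembly (Psmd1 to Psmd14), 4 activators (Psme1 to Psme4) and 2 genes that the name pattern caught and that encode no subunit, Psmc3ip and Psme3ip1. A single probe stood for 24 of the genes, and 18 had more than 1. The genes lie on 16 chromosomes.

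The 12 liver samples came from 3-month-old male C57BL/6 mice with a knockout of the glucocorticoid receptor (GR) in the liver, so the deletion was common to every group. An adeno-associated virus carrying human GR beta was given to the AAV-hGRB group, one carrying green fluorescent protein to the AAV-GFP group, and phosphate-buffered saline to the PBS group, with 4 samples each. GR beta is the splice form of the receptor that does not bind glucocorticoids, and by its title the study asks what it does to transcription when GR alpha is absent. The driver of the knockout, the promoter of the vectors, the dose and the time after injection are stated nowhere in the labels used. Whether every sample is a separate animal is not stated either, so the spread behind the p-values may be technical. One-colour arrays gave an intensity per probe, used here as log2 above or below the 75th percentile of the same array, and a level can be compared between arrays but not between genes. The deleted gene, Nr3c1, has 4 probes. The brightest of them lay between 0.27 and 0.58 on AAV-hGRB arrays, 0.046 and 0.48 on AAV-GFP arrays and 0.14 and 0.49 on PBS arrays. With no GR-intact sample in these groups the deletion is not checked by that value, and human GR beta was not measured by a probe named for it.

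The proteasome core is a barrel whose outer rings of alpha subunits gate the entry and whose inner rings of beta subunits hold the cutting sites. Psmb5, Psmb6 and Psmb7 carry the chymotrypsin-like, caspase-like and trypsin-like activities, and interferon-gamma induces Psmb8, Psmb9 and Psmb10, which take their places in the immunoproteasome. The 19S cap binds and deubiquitinates substrates and uses its ATPases to unfold them. Psme1 and Psme2 together form the PA28 alpha-beta activator, which is interferon-inducible too, Psme3 forms the nuclear PA28 gamma activator and Psme4 is PA200. When proteasome activity falls short, the transcription factor NRF1 (Nfe2l1) raises the subunit genes together through antioxidant response elements in their promoters.

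The promoters of 33 of the 40 subunit and activator genes are in the RefSeq table (GRCm38.p6, 250 bases before to 50 after the start of the gene). They were searched on both strands for 4 motifs: the ISRE core GAAANNGAA, which binds interferon-activated factors, the GAS element TTCNNNGAA, the antioxidant element TGACNNNGC and the CCAAT box. The antioxidant element was found in 6 of 33 promoters, those of Psmb5, Psmb6, Psmc6, Psmd9, Psmd12 and Psme4, against 14% of the 27025 genes in the table. The ISRE core was found in 6 of 33, those of Psmb3, Psmb4, Psmc2, Psmd4, Psmd9 and Psme1, against 9.76% of genes. The GAS element was found in 1 of 33, that of Psmd2, against 9.55%, and CCAAT in 13 of 33, against 41.1%. Matches of different motifs overlapped in 0 of these promoters, and a match is a description of the letters, not a binding site. The promoters below belong to the catalytic subunit Psmb5, its interferon-inducible counterpart Psmb8 and the interferon-inducible activator Psme1, whose values are set side by side further on. Capitals mark the antioxidant element in Psmb5, the GAS element in Psmb8 and the ISRE core, read on the opposite strand, in Psme1.
Psmb5 promoter (chr14:54617946-54618245, minus strand): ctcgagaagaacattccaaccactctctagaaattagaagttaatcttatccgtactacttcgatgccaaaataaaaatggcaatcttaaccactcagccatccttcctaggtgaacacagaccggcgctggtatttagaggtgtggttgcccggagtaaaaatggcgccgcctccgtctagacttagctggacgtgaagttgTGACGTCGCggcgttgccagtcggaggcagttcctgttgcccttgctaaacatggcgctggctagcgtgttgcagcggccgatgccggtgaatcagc
Psmb8 promoter (chr17:34197945-34198244, plus strand): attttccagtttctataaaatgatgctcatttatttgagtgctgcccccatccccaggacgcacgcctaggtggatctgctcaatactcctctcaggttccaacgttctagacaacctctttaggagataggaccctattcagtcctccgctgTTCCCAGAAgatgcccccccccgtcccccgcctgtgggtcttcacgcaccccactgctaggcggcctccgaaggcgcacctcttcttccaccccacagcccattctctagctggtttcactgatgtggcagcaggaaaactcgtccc
Psme1 promoter (chr14:55578244-55578543, plus strand): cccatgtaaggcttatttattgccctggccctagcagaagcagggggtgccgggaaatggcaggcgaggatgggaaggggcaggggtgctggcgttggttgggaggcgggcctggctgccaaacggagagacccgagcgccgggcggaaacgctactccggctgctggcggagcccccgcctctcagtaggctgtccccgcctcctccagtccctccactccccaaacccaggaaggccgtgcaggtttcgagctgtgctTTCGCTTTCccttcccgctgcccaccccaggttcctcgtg

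The values come from 60-base probes, and where a gene had several, the probe of highest mean signal stood for it. Psmc5, an ATPase of the cap, has 2 probes that differed in sign in 2 of the 3 comparisons, and Psmb5 and Psmb8 have the probes behind the paired difference below. Their sequences, with the positions the array design gives on the mouse build mm7, carry no capitals because no part of them is singled out.
Psmc5 upstream probe (chr11:106370290-106370489, plus strand): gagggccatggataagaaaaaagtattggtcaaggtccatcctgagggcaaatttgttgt
Psmc5 downstream probe (chr11:106371919-106372103, plus strand): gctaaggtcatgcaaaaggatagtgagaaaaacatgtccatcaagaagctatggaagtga
Psmb5 probe (chr14:49480764-49480823, minus strand): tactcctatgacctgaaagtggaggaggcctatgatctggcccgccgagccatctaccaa
Psmb8 probe (chr17:32280725-32281049, plus strand): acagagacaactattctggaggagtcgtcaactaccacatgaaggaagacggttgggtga

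Transcripts of the constitutive proteasome were detected in every liver. Of the 42 genes, 41 had a probe well above background on all 12 arrays and were tested. Psmb11, the beta subunit of the thymus, was the exception: its probes were well above background on at most 1 array. Psma8, the alpha subunit of testis, was well above background on every array, while 0 of 3 germ cell markers (Ddx4, Dazl and Sycp3) could be tested. The probe of Psma8 is named by the array design and not through an accession, and whether it measures Psma8 alone was not checked. All 8 hepatocyte markers (albumin among them) were well above background, with a mean level of 7.15 to 7.37 in AAV-hGRB livers, 6.82 to 7.62 in AAV-GFP livers and 7.16 to 7.62 in PBS livers. Of the 2 genes that encode no subunit, Psmc3ip is a factor of meiotic recombination and Psme3ip1 binds the PA28 gamma activator. The 2 probes of Psme2 carry the name of its near-identical copy Psme2b in the array design, while their accessions and their position next to Psme1 point to Psme2, so signal from the copy cannot be told apart.

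The array AAV-GFP 3 stood apart, in these genes and over the whole array. Each gene's level was set against its own median over the 12 arrays, and on AAV-GFP 3 the 41 genes spread from -2.33 (Psmb1) to 1.28 (Psmb3), with a median of -0.59. The interquartile range of the deviations was 1.43 for the 41 genes and 1.20 for all probes there, against at most 0.42 and 0.64 on any other array. It held the lowest level of all arrays for 26 of the 41 genes, against 23.8% of all probes tested, and 17 genes lay over 1 log2 below their median there, against 12.5% of all probes. Psmb1, Psma6, Psmc3, Psmd13, Psmd9 and Psmd8 were the lowest and Psmb3, Psmc5, Psmb6, Psmd3 and Psma7 the highest, so low and high genes came from the core and the cap alike. The same array had the lowest 75th percentile (7.71 log2, against 8.45 to 9.22 on the others) and the lowest share of probes well above background (54.9%, against 55.9% to 66.3%). The median SD of the 41 genes within AAV-GFP was 0.48 with this array and 0.23 without it, beside 0.22 in AAV-hGRB and 0.26 in PBS. Over all probes the median SD within AAV-GFP was 0.51 with it and 0.29 without it. The part that signal and detection on this array have in the results was not tested.

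**Figure D1:**
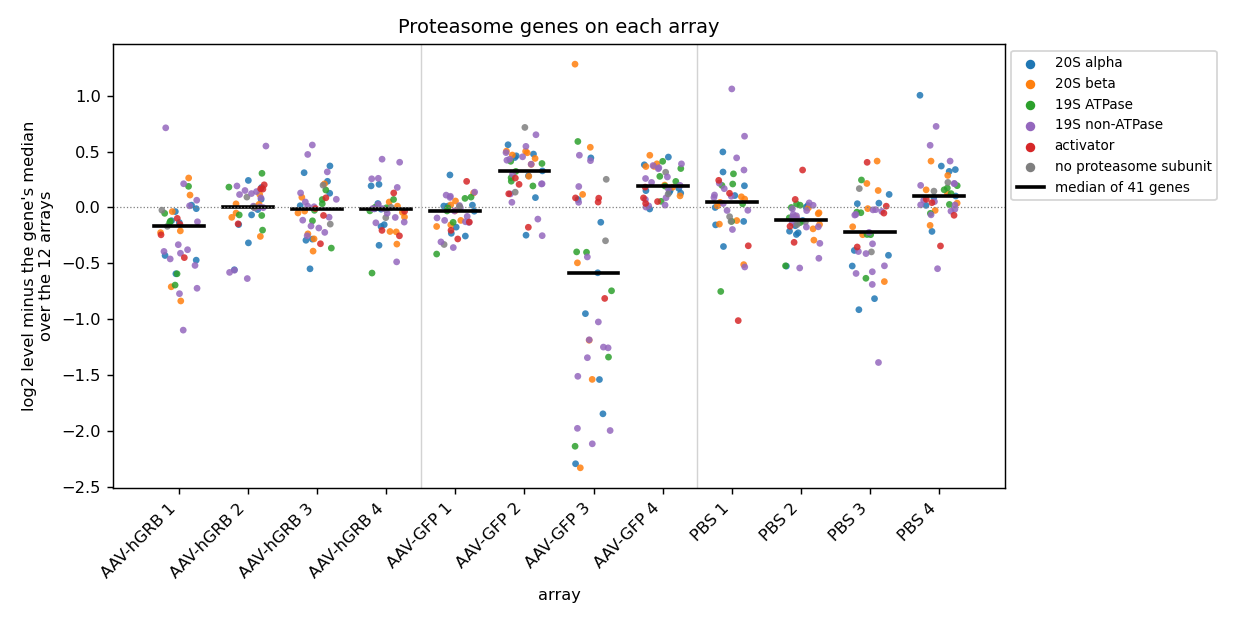
Points are the 41 tested proteasome genes on each of the 12 arrays, as the log2 level minus the gene's median over all arrays, coloured by class; bars are the median of the 41 genes. The genes spread over -2.33 to 1.28 on AAV-GFP 3, and 37 and 40 of 41 lay above their own median on AAV-GFP 2 and AAV-GFP 4.

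On the other arrays the shifts were smaller, and on several of them most genes lay on the same side. On AAV-GFP 2 and AAV-GFP 4, 37 and 40 of the 41 genes lay above their own median, by 0.33 and 0.19 at the median gene, and 31 did on PBS 4. Only 8 of 41 lay above it on AAV-hGRB 1 and on PBS 2, and 10 on PBS 3. Replicates of AAV-GFP and of PBS therefore lay on both sides, whereas AAV-hGRB 2, 3 and 4 lay within 0.016 of 0 at the median gene. Over all probes tested the median deviations of the 12 arrays lay between -0.079 and 0.19.

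AAV-hGRB livers were compared with AAV-GFP livers to ask what human GR beta adds to an unrelated vector. No proteasome gene passed the test: 0 of 41 had an adjusted p under 0.05 (limma, Benjamini-Hochberg over 26592 probes), where 0% of all probes did, and 0 of 41 had an unadjusted p under 0.05, where 3.35% of all probes did. The lowest adjusted p among the genes was 0.998. The log2 change was positive in 18 and negative in 23, with a median of -0.016 beside -0.049 over all probes, and lay between -0.50 (Psmb3) and 0.31 (Psma4). Groups did not overlap in 1 of 41 genes, Psma2, where 2.98% of all probes did not. For 30 of the 41 genes the 95% interval lay within 1 log2, a change of 2-fold, in both directions, and for 11 it reached beyond. Bulk liver cannot tell fewer cells of a type from less RNA per cell.

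Among the alpha subunits, which gate the core, 4 of 8 were higher and the median was 0.071. Psma4 had 3.00, 3.55, 3.49 and 3.67 on the AAV-hGRB arrays, 3.50, 3.56, 1.94 and 3.46 on the AAV-GFP arrays and 3.58, 3.26, 2.95 and 3.26 on the PBS arrays. AAV-GFP 3 was far below every other array, and the change was 0.31 ± 0.34 (SE), or -0.079 without that array. Psma3 had 2.96, 3.24, 3.76 and 3.38 on the AAV-hGRB arrays, 3.16, 3.85, 1.55 and 3.54 on the AAV-GFP arrays and 3.71, 3.41, 2.58 and 3.72 on the PBS arrays. AAV-GFP 3 was again the lowest, with a change of 0.31 ± 0.45 (SE), or -0.18 without it. Psma2 had 6.57, 6.51, 6.29 and 6.43 on the AAV-hGRB arrays, 6.59, 6.87, 6.65 and 6.72 on the AAV-GFP arrays and 6.43, 6.34, 6.62 and 6.60 on the PBS arrays. All AAV-hGRB arrays lay just below all AAV-GFP arrays and overlapped PBS, with a change of -0.26 ± 0.16 (SE) and an adjusted limma p of 0.998. Psma8, of testis proteasomes, had a change of -0.32 ± 0.32 (SE), the third lowest of the 41, or -0.40 without AAV-GFP 3.

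Among the beta subunits, which form the cutting chamber, 1 of 7 tested was higher and the median was -0.18. Psmb3, a structural subunit, had 7.34, 7.10, 6.68 and 6.75 on the AAV-hGRB arrays, 6.92, 7.35, 8.36 and 7.26 on the AAV-GFP arrays and 6.56, 6.78, 7.49 and 7.05 on the PBS arrays. The highest value was that of AAV-GFP 3, and the change was -0.50 ± 0.31 (SE), or -0.21 without that array. Psmb6, of the caspase-like site, had 6.85, 6.77, 6.46 and 6.53 on the AAV-hGRB arrays, 6.71, 7.13, 7.28 and 7.11 on the AAV-GFP arrays and 6.62, 6.55, 6.89 and 6.58 on the PBS arrays. AAV-GFP 2, 3 and 4 were the 3 highest arrays, AAV-GFP 1 lay inside the AAV-hGRB range, and the change of -0.40 ± 0.19 (SE) had the lowest unadjusted limma p of the 41 genes, 0.0514, with an adjusted p of 0.998. Without AAV-GFP 3 it was -0.33. Psmb5, of the chymotrypsin-like site, had 5.37, 5.52, 5.17 and 5.18 on the AAV-hGRB arrays, 5.23, 5.87, 5.52 and 5.87 on the AAV-GFP arrays and 5.25, 5.35, 5.62 and 5.44 on the PBS arrays. Its groups overlapped, with a change of -0.31 ± 0.20 (SE), or -0.35 without AAV-GFP 3. Psmb7, of the trypsin-like site, had 2.37, 2.99, 3.17 and 3.04 on the AAV-hGRB arrays, 3.21, 3.57, 1.54 and 3.28 on the AAV-GFP arrays and 3.13, 2.93, 2.84 and 3.21 on the PBS arrays. The change was -0.0081 ± 0.38 (SE), and AAV-GFP 3 was the lowest array.

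Of the cap ATPases, which unfold the substrate, 3 of 6 were higher, with a median of -0.028 and a range of -0.25 (Psmc5) to 0.24 (Psmc3). Of the 14 other cap genes, 9 were higher, with a median of 0.072 and a range of -0.22 (Psmd3) to 0.31 (Psmd13). Psmd13 had -1.13, -0.61, 0.53 and 0.40 on the AAV-hGRB arrays, -0.34, 0.46, -2.14 and -0.014 on the AAV-GFP arrays and 0.61, -0.040, -1.42 and 0.39 on the PBS arrays. AAV-GFP 3 was the lowest array, and the change of 0.31 ± 0.60 (SE) was the third highest, but -0.24 without that array. The ubiquitin receptors Psmd2 and Psmd4 and the deubiquitinase Psmd14 had changes of -0.15, 0.10 and 0.038, and the assembly factors Psmd5, Psmd9 and Psmd10 of 0.042, 0.21 and 0.29.

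Without AAV-GFP 3 the direction was close to uniform by the probe that stood for each gene. The change was negative in 39 of 41 genes, all but Psmd7 and Psmd10. The median was -0.24 beside -0.053 over all probes, of which 43.7% were positive. Other probes did not all follow: in 6 of 16 genes with several probes, the upstream and downstream probes then differed in sign. Psmd4 had -0.24 from the probe that stood for it and 1.02 from its other probe. Psmc2 had -0.27 and 0.72 in the same order. On AAV-GFP 2 and AAV-GFP 4, 37 and 40 of the 41 genes lay above their own median over the 12 arrays. On AAV-GFP 1, 16 did, so the remaining AAV-GFP arrays were not alike. AAV-GFP 4 was also alone on the second scan day. The genes were measured on the same arrays, so their signs are not independent counts. Every class had a negative median: -0.22 for the alpha subunits, -0.35 for the beta subunits, -0.27 for the ATPases, -0.24 for the other cap genes and -0.10 for the activators. Still, 1 gene had an unadjusted p under 0.05, Psmd6 of the cap (-0.48 ± 0.20 (SE), unadjusted limma p 0.0331, adjusted p 0.661), where 7.35% of all probes did. The groups did not overlap in 7 of 41 genes, Psma2, Psmb2, Psmb4, Psmb7, Psmc4, Psmd2 and Psme3ip1, each lower in AAV-hGRB, where 9.61% of all probes did not overlap. AAV-GFP 3 was singled out after its values were known, and with all 4 AAV-GFP arrays 23 of the 41 changes were negative. Another scaling also moved the split: 32 of 41 genes were positive with quantile scaling (median 0.10) and 10 with the normexp background (median -0.092). Hepatocyte markers moved with this shift. Without AAV-GFP 3, 0 of 8 were higher in AAV-hGRB (median -0.35), against 2 of 8 (median -0.10) with it, and their part in the shift was not tested. On the slide that held AAV-hGRB 1 and AAV-GFP 2 the median difference of the 41 genes was -0.56, and on the slide that held AAV-hGRB 3 and AAV-GFP 3 it was 0.71.

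Values of some of the genes that did not overlap without AAV-GFP 3 follow. Psmb4, a structural beta subunit, had 6.23, 6.39, 6.39 and 6.45 on the AAV-hGRB arrays, 6.49, 6.94, 5.94 and 6.80 on the AAV-GFP arrays and 6.51, 6.35, 6.43 and 6.85 on the PBS arrays. The 4 AAV-hGRB arrays lay below AAV-GFP 1, 2 and 4, with a change of -0.38 ± 0.18 (SE) without AAV-GFP 3 and -0.18 ± 0.23 (SE) with it. Psmc4, an ATPase, had 4.27, 4.34, 4.38 and 4.41 on the AAV-hGRB arrays, 4.50, 4.82, 4.01 and 4.75 on the AAV-GFP arrays and 4.70, 4.40, 4.36 and 4.53 on the PBS arrays. Its change was -0.34 ± 0.16 (SE) without AAV-GFP 3 and -0.17 ± 0.20 (SE) with it. Psmd2, the large scaffold of the cap base, had 4.67, 4.88, 4.63 and 4.82 on the AAV-hGRB arrays, 4.91, 5.22, 4.35 and 5.14 on the AAV-GFP arrays and 4.77, 4.72, 4.76 and 5.01 on the PBS arrays. Its change was -0.34 ± 0.16 (SE) without AAV-GFP 3 and -0.15 ± 0.21 (SE) with it. Psmd6, a subunit of the cap lid, overlapped and is given for its p. It had 3.44, 3.90, 3.65 and 3.77 on the AAV-hGRB arrays, 3.90, 4.35, 2.64 and 4.26 on the AAV-GFP arrays and 4.00, 3.92, 3.50 and 3.95 on the PBS arrays. AAV-GFP 3 was the lowest array, AAV-hGRB 2 and AAV-GFP 1 were nearly equal, and the change was -0.48 ± 0.20 (SE) without it and -0.10 ± 0.33 (SE) with it. Psmb2, Psmb7 and Psme3ip1 had -0.39, -0.46 and -0.13 without AAV-GFP 3, and -0.016, -0.0081 and -0.035 with it.

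None of the other genes passed the test against AAV-GFP, and their changes over all arrays, AAV-GFP 3 included, follow by class. Of the alpha subunits, they were 0.15 for Psma1, -0.0044 for Psma5, 0.26 for Psma6 and -0.32 for Psma7. Of the beta subunits, the change was 0.27 for Psmb1. Of the ATPases, they were 0.10 for Psmc1, -0.093 for Psmc2 and 0.036 for Psmc6. Of the cap genes, they were 0.16 for Psmd1, 0.20 for Psmd7, 0.21 for Psmd8, -0.051 for Psmd11 and -0.11 for Psmd12. Psmc3ip had -0.23. Within AAV-hGRB, 2 of 41 genes had an SD over 0.5 between arrays, the largest that of Psmd13 (0.80). In AAV-GFP 19 did, with Psma6 the largest (1.28), and in PBS 6, with Psmd13 the largest again (0.91).

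**Figure D2:**
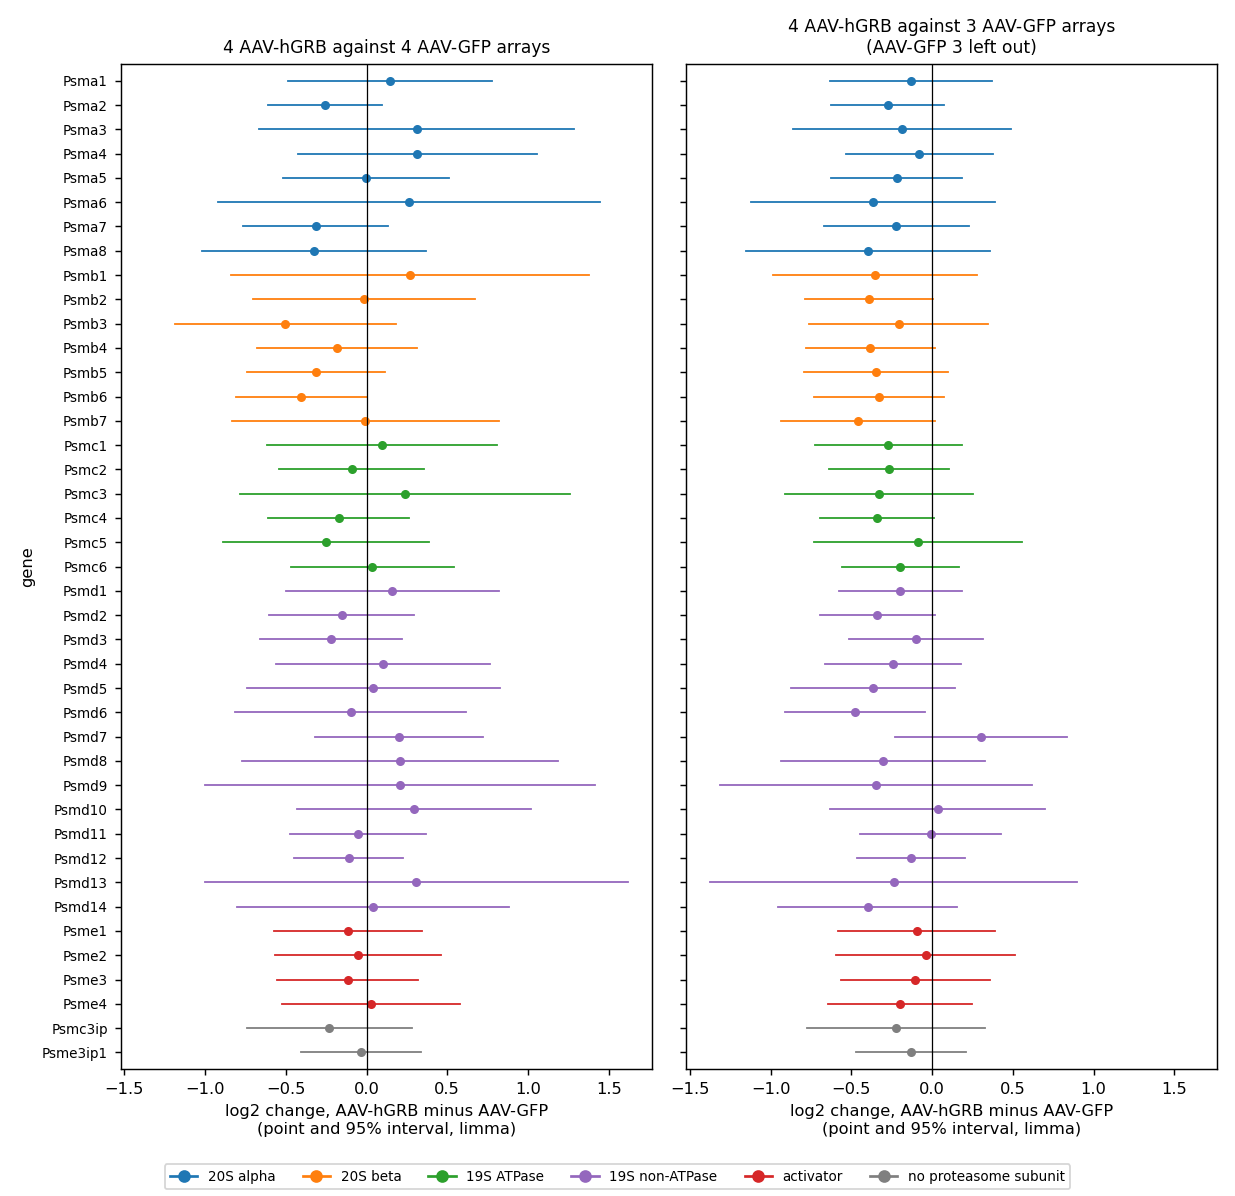
Points are the log2 changes of the 41 genes, AAV-hGRB minus AAV-GFP, with 95% limma intervals, over all 8 arrays (left) and without AAV-GFP 3 (right), coloured by class. On the left 18 of 41 points lie above 0, and on the right 2 do.

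AAV-hGRB livers were compared with PBS livers for the sum of vector and transgene. Again no proteasome gene passed the test, with 0 of 41 at an adjusted p under 0.05 (0% of all probes). The change was positive in 15 of 41, with a median of -0.045 beside -0.057 over all probes and a range of -0.41 (Psma8) to 0.61 (Psmd7). One gene, Psmd7, had an unadjusted p under 0.05, where 5.84% of all probes did, and it was also the gene without overlap between the groups, where 4.59% of all probes had none. Psmd7, the cap subunit that pairs with the deubiquitinase Psmd14, had 3.97, 3.81, 3.27 and 3.25 on the AAV-hGRB arrays, 3.35, 3.01, 3.68 and 3.46 on the AAV-GFP arrays and 3.23, 2.72, 3.19 and 2.71 on the PBS arrays. All AAV-hGRB arrays lay above all PBS arrays, by 0.61 ± 0.24 (SE) with an unadjusted limma p of 0.0246 and an adjusted p of 0.827. Within the 2 slides that held both groups, the difference of Psmd7 was 1.26 and 0.080. Its 2 other probes gave 0.64 (upstream) and 0.086 (downstream).

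After Psmd7, the activator gene Psme2 and the cap gene Psmd11 had the highest changes against PBS, 0.27 ± 0.24 (SE) and 0.26 ± 0.19 (SE). Without PBS 1 the change of Psme2 was 0.036. Psmd9, an assembly chaperone of the cap, had 0.093, 0.23, 1.34 and 1.27 on the AAV-hGRB arrays, 0.77, 1.52, -1.13 and 0.95 on the AAV-GFP arrays and 1.93, 0.78, 0.27 and 1.59 on the PBS arrays. The groups overlapped widely, with a change of -0.41 ± 0.56 (SE) next to -0.41 ± 0.32 (SE) for Psma8 and -0.25 ± 0.45 (SE) for Psmd8. All 7 tested beta subunits were lower against PBS, but by little, between -0.17 (Psmb4) and -0.0029 (Psmb3), with a median of -0.11. Psmb5, Psmb6 and Psmb7 had -0.11, -0.0089 and -0.13. The alpha subunits had a median of -0.031, the ATPases of -0.052, the other cap genes of -0.0010 and the activators of -0.061. With quantile scaling 25 of 41 genes were positive, with median scaling 21 and with normexp 5, so the sign of these small medians depended on the scaling. Within the 2 slides that held both groups the median differences were -0.34 and 0.14.

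AAV-GFP livers were compared with PBS livers for what a vector without the receptor does. This comparison shares its AAV-GFP arrays with the first and its PBS arrays with the second, so the 3 sets of values are not independent. Of the 41 genes, 0 had an adjusted p under 0.05 (0% of all probes) and 0 an unadjusted p under 0.05 (1.68% of all probes), and the groups overlapped in all 41 (0.94% of all probes did not overlap). The change was positive in 18, with a median of -0.028 and a range of -0.62 (Psmd9) to 0.50 (Psmb3). Psmb3 had 0.50 ± 0.31 (SE), Psmd7 0.41 ± 0.24 (SE) and Psmb6 0.39 ± 0.19 (SE) at the upper end, and Psmd9 -0.62 ± 0.56 (SE), Psmd8 -0.46 ± 0.45 (SE) and Psmd13 -0.39 ± 0.60 (SE) at the lower. Without AAV-GFP 3 these 6 were 0.21, 0.31, 0.32, -0.063, 0.056 and 0.15 in the same order. Without it, 38 of 41 were positive by the probe that stood for each gene (48.9% of all probes). The median was 0.23 beside -0.0072 over all probes, and Psmd9, Psma8 and Psme3 were the exceptions. In 5 of 16 genes with several probes, the upstream and downstream probes then differed in sign. Psmd7 had -0.35 from the upstream and 0.37 from the downstream probe, and Psmd9 had 0.40 from its other probe. Of the 8 hepatocyte markers, 8 were higher in AAV-GFP without AAV-GFP 3 (median 0.14), against 4 with that array. One gene then had an unadjusted p under 0.05, the alpha subunit Psma5 (0.43 ± 0.18 (SE), unadjusted limma p 0.0411, adjusted p 1), where 2.63% of all probes did. Groups then did not overlap in 3 genes, Psmb7, Psmc2 and Psmd1, each higher in AAV-GFP, where 3.37% of all probes did not overlap. Within the 3 slides that held both groups the median differences of the 41 genes were 0.062, 0.22 and -0.46, the last of them from AAV-GFP 3.

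No activator gene passed the test in any comparison, the interferon-inducible pair Psme1 and Psme2 included. Psme1 had 6.05, 6.50, 6.23 and 6.05 on the AAV-hGRB arrays, 6.02, 6.51, 6.38 and 6.38 on the AAV-GFP arrays and 5.96, 6.13, 6.70 and 6.37 on the PBS arrays. The groups overlapped, and the changes were -0.12 ± 0.21 (SE) against AAV-GFP, with a 95% interval of -0.57 to 0.34, and -0.083 ± 0.21 (SE) against PBS. Psme2 had 7.08, 7.40, 7.23 and 7.03 on the AAV-hGRB arrays, 7.03, 7.36, 7.28 and 7.29 on the AAV-GFP arrays and 6.22, 6.92, 7.25 and 7.28 on the PBS arrays. PBS 1 was the lowest array, and the changes were -0.054 ± 0.24 (SE) against AAV-GFP, with a 95% interval of -0.57 to 0.46, and 0.27 ± 0.24 (SE) against PBS. The nuclear activator gene Psme3 had 0.33, 0.59, 0.10 and 0.39 on the AAV-hGRB arrays, 0.66, 0.25, 0.51 and 0.46 on the AAV-GFP arrays and 0.67, 0.76, 0.38 and 0.082 on the PBS arrays. Its changes were -0.12 ± 0.20 (SE) against AAV-GFP and -0.12 ± 0.20 (SE) against PBS. Psme4 had 4.66, 4.97, 5.20 and 5.24 on the AAV-hGRB arrays, 4.98, 5.38, 4.30 and 5.29 on the AAV-GFP arrays and 5.24, 5.19, 4.76 and 5.04 on the PBS arrays. Its changes were 0.030 ± 0.25 (SE) against AAV-GFP and -0.039 ± 0.25 (SE) against PBS. AAV-GFP 3 was the lowest array, and without it the change against AAV-GFP was -0.20. Between AAV-GFP and PBS livers the changes were 0.032 for Psme1, 0.32 for Psme2, -0.0012 for Psme3 and -0.069 for Psme4. A miss of the threshold does not show that the groups were alike, and the intervals bound the change of Psme1 and Psme2 against AAV-GFP to less than 1 log2.

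The 3 immunoproteasome subunits were set beside their constitutive counterparts, and they did not pass the test either. Psmb8, the counterpart of Psmb5, had 4.09, 5.02, 4.97 and 3.98 on the AAV-hGRB arrays, 3.80, 4.14, 3.82 and 3.93 on the AAV-GFP arrays and 3.22, 3.91, 4.09 and 4.09 on the PBS arrays. AAV-hGRB 2 and 3 were the highest arrays, and the changes were 0.60 ± 0.29 (SE) against AAV-GFP (unadjusted limma p 0.0595, adjusted p 0.998) and 0.69 ± 0.29 (SE) against PBS (unadjusted limma p 0.0334, adjusted p 0.842). On the slides that held both groups, the difference of Psmb8 was -0.044 and 1.16 against AAV-GFP and -0.0011 and 0.88 against PBS, the larger ones with AAV-hGRB 3 and the others with AAV-hGRB 1. Psmb9, the counterpart of Psmb6, had 3.51, 4.61, 4.34 and 3.30 on the AAV-hGRB arrays, 3.47, 3.68, 3.56 and 3.58 on the AAV-GFP arrays and 2.44, 3.43, 3.70 and 3.73 on the PBS arrays. Its changes were 0.37 ± 0.34 (SE) and 0.61 ± 0.34 (SE). Psmb10, the counterpart of Psmb7, had changes of 0.011 ± 0.22 (SE) against AAV-GFP and 0.066 ± 0.22 (SE) against PBS. Between AAV-GFP and PBS livers Psmb8, Psmb9 and Psmb10 had changes of 0.092, 0.25 and 0.055.

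**Figure D3:**
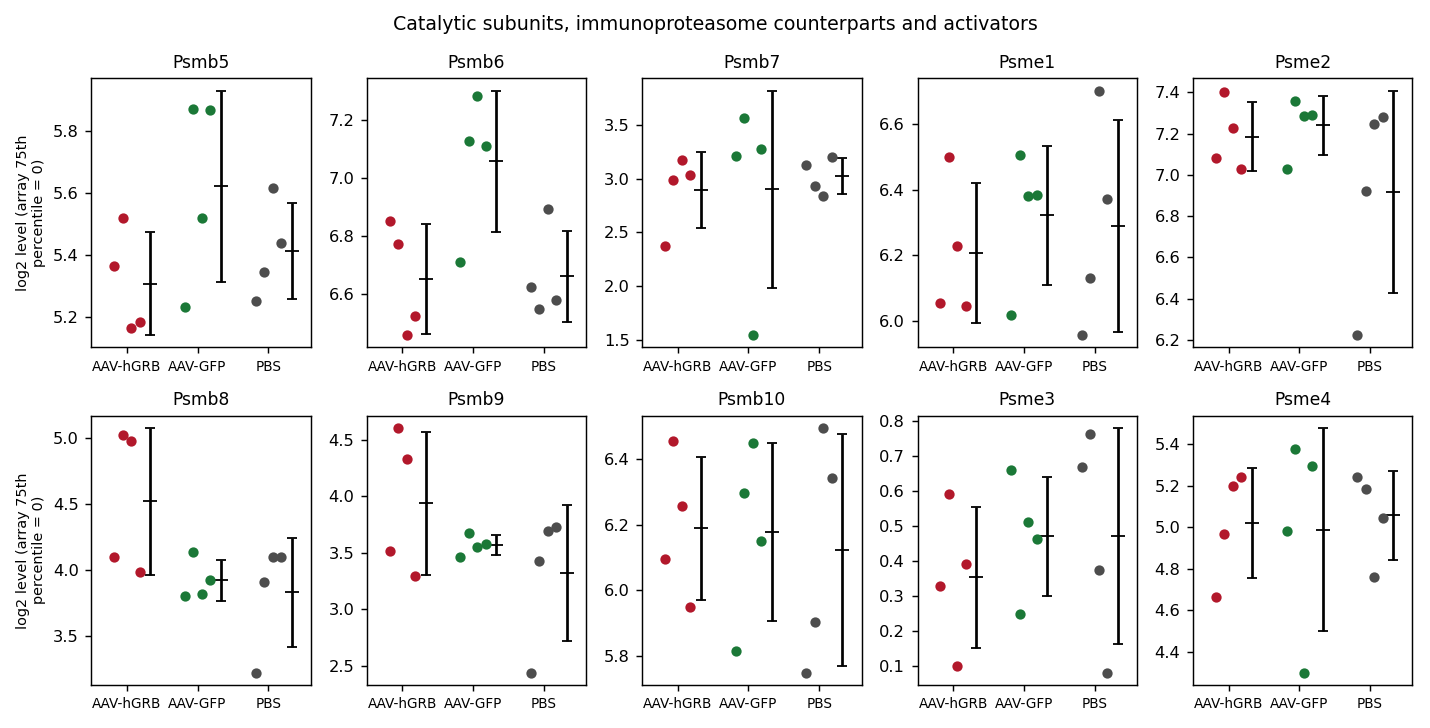
Each panel shows the log2 level of a gene (75th percentile of the array at 0) on the 4 arrays of AAV-hGRB, AAV-GFP and PBS, with the mean and SD beside the points; the vertical scale differs between panels. AAV-hGRB 2 and 3 are the highest points for Psmb8 and Psmb9, and the groups overlap for Psme1, Psme2, Psme3 and Psme4.

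The difference between an inducible subunit and its partner on the same array is free of any constant subtracted from an array. Psmb8 minus Psmb5 was -1.27, -0.50, -0.19 and -1.20 log2 on the AAV-hGRB arrays, -1.43, -1.73, -1.70 and -1.94 on the AAV-GFP arrays and -2.03, -1.44, -1.52 and -1.35 on the PBS arrays. All AAV-hGRB arrays lay above all others, and AAV-hGRB 1 and 4 only narrowly. The mean was -0.79 ± 0.53 over AAV-hGRB arrays, -1.70 ± 0.21 over AAV-GFP arrays and -1.58 ± 0.31 over PBS arrays (SD, n = 4 each). The difference was 0.91 log2 higher than in AAV-GFP and 0.79 higher than in PBS, each with an exact two-sided permutation p of 0.0286, the smallest that 4 against 4 arrays allow, and an adjusted p of 0.214 over the 15 tests of 5 pairs in 3 comparisons. Neither passed the threshold after adjustment.

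Psmb9 minus Psmb6 was -3.34, -2.17, -2.12 and -3.23 log2 on AAV-hGRB arrays, -3.25, -3.45, -3.72 and -3.53 on AAV-GFP arrays and -4.18, -3.12, -3.20 and -2.85 on PBS arrays. AAV-hGRB 2 and 3 stood above every other array while AAV-hGRB 1 and 4 did not, and the difference between groups was 0.77 against AAV-GFP (exact permutation p = 0.0571, adjusted p = 0.286) and 0.62 against PBS (exact permutation p = 0.286). Psmb10 minus Psmb7 had a difference of 0.019 against AAV-GFP and 0.20 against PBS. Psme1 minus Psme3, the interferon-inducible activator set against the nuclear one, had 0.0022 and 0.035, and Psme2 minus Psme3 had 0.063 and 0.39. The groups overlapped in these 3 pairs, with exact permutation p-values of 0.429 or more.

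**Figure D4:**
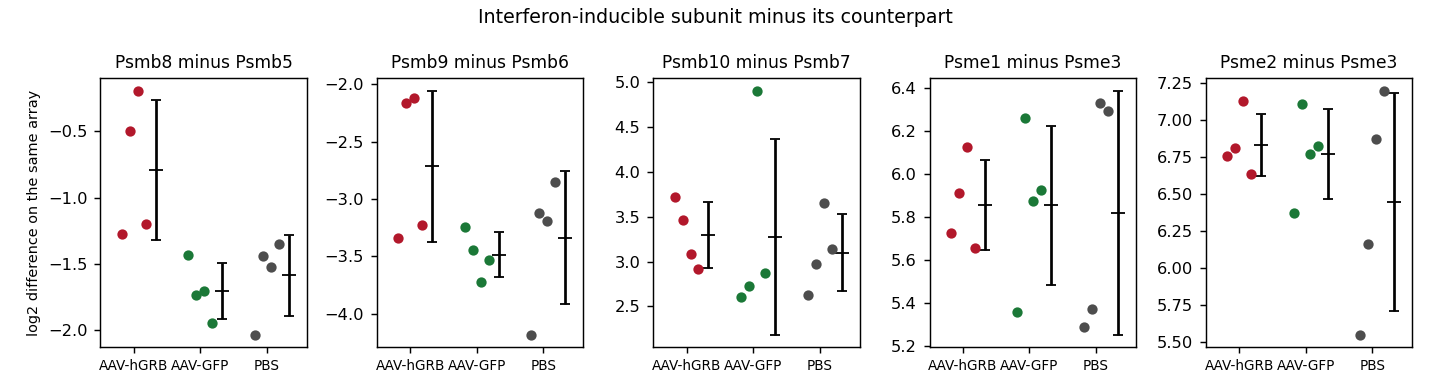
Points are the log2 difference between 2 subunit genes on the same array, for 4 arrays each of AAV-hGRB, AAV-GFP and PBS, with the mean and SD beside them. Psmb8 minus Psmb5 lies higher on all 4 AAV-hGRB arrays than on the other 8, and Psme1 minus Psme3 and Psme2 minus Psme3 overlap.

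Probes of the same gene did not always give the same change, and the difference went with position along the gene on AAV-GFP 3. In 16 genes with at least 2 tested probes on 1 strand, the probe nearest the start of the gene was set against the one nearest its end. Against AAV-GFP, the upstream probe gave the higher change in 15 of 16 genes, by a median of 0.32, Psmd4 being the exception, and the signs of the probes differed in 10 of 16. The count of 15 rested on AAV-GFP 3: without it the upstream probe was higher in 9 of 16, by a median of 0.13. The signs still differed in 6 of 16 genes without that array. Psmd7 then had 0.99 from the upstream and -0.28 from the downstream probe, and Psmd4 had -0.24 and 1.02. With all arrays, for Psmc5 the changes were 0.39 from the upstream and -0.25 from the downstream probe, for Psmd14 0.62 from the upstream and 0.038 from the downstream probe, for Psme4 0.48 from the upstream and 0.030 from the downstream probe and for Psmb3 -0.30 from the upstream and -0.50 from the downstream probe. The upstream probe of Psmc5 had 0.54, 0.93, 1.56 and 1.03 on the AAV-hGRB arrays, 1.01, 1.30, -1.10 and 1.30 on the AAV-GFP arrays and 1.49, 1.10, 0.22 and 1.02 on the PBS arrays. The downstream probe had 4.93, 4.92, 4.37 and 4.15 on the AAV-hGRB arrays, 4.32, 4.93, 5.33 and 4.79 on the AAV-GFP arrays and 3.99, 4.22, 4.98 and 4.68 on the PBS arrays. On AAV-GFP 3 the upstream probe was at its lowest and the downstream probe at its highest of the 12 arrays. Without it the changes of Psmc5 were -0.19 from the upstream and -0.088 from the downstream probe. In AAV-GFP against PBS the 2 probes of Psmc5 had opposite signs, -0.33 from the upstream and 0.38 from the downstream probe. With all arrays this was the single gene with opposite signs and both over 0.3. Without AAV-GFP 3 the probes of Psmc5 had 0.24 and 0.21. Psmd7 then had opposite signs with both over 0.3, -0.35 from the upstream and 0.37 from the downstream probe. Signs differed in 5 of 16 genes in that setting. Against PBS the AAV-hGRB upstream probe was higher in 9 of 16 genes (median 0.039), and in AAV-GFP against PBS in 4 of 16 (median -0.26), or 5 of 16 (median -0.059) without AAV-GFP 3.

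By array, the upstream minus downstream difference, set against each gene's median, had a median over the 16 genes of -0.70 on AAV-GFP 3, where it was below 0 in 13 of 16. It was below 0 on PBS 3 and AAV-hGRB 1 too, at -0.26 and -0.13, and highest on 3 others, with 0.38 on PBS 1, 0.22 on AAV-hGRB 4 and 0.18 on AAV-hGRB 3. Over 3937 other genes with several probes the medians on the same arrays were smaller: -0.087 on AAV-GFP 3, -0.079 on PBS 3, -0.027 on AAV-hGRB 1 and 0.18 on PBS 1. AAV-GFP 3, PBS 3 and AAV-hGRB 1 were also the arrays with the lowest medians of the 41 genes (-0.59, -0.22 and -0.17). The same arrays had the lowest 75th percentiles, 7.71, 8.45 and 8.60 log2. In most of the 16 genes the probe of highest mean signal was the downstream one, so position and brightness of the probe cannot be told apart. RNA quality values were not among the labels used, and the part that probe position or brightness has in the differences between groups was not tested.

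**Figure D5:**
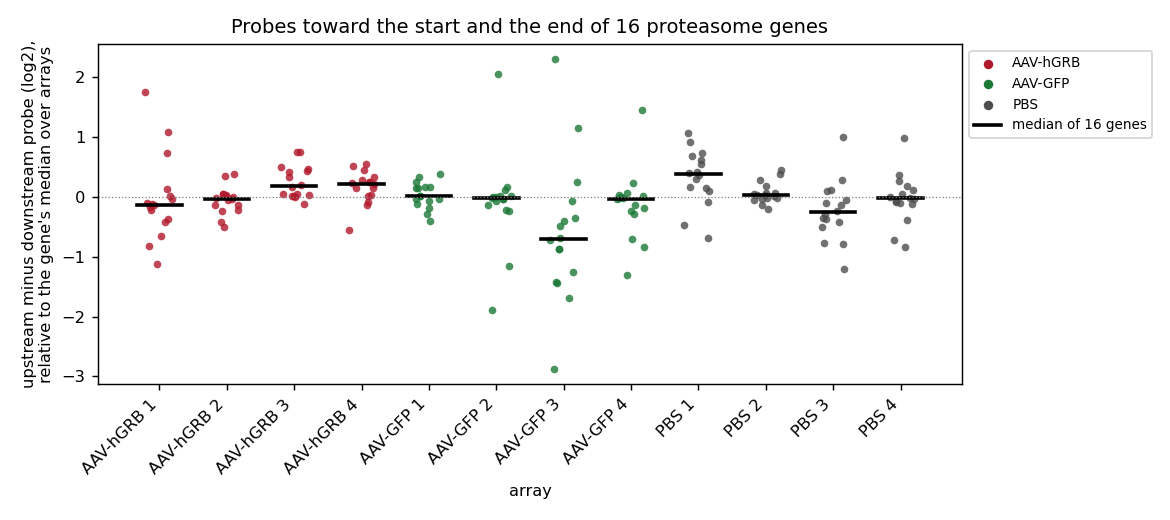
Points are the 16 genes with several tested probes, Psmc3ip and Psme3ip1 among them. They show the log2 difference of the upstream minus the downstream probe on each array, relative to the gene's median over the 12 arrays. The 2 probes lie 250 (Psma4) to 59114 (Psme4) bases apart, so they are not always near the ends of the gene. Bars are medians. The median is -0.70 on AAV-GFP 3 and 0.38 on PBS 1.

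Genes that serve the proteasome gave no called change either. Of 13 assembly, inhibitor and associated factors, 12 had a negative change against AAV-GFP, with a median of -0.15 beside -0.049 over all probes, and 0 had an unadjusted p under 0.05. The exception was Psmf1, the PI31 regulator, at 0.41 ± 0.23 (SE), and the cap-binding scaffold Ecpas and the cap subunit Sem1 had -0.25 ± 0.25 (SE) and -0.23 ± 0.18 (SE). Without AAV-GFP 3, 12 of 13 were negative (median -0.18), Psmf1 had 0.21 and Ecpas -0.076. In that setting 1 of 13, Uchl5, had an unadjusted p under 0.05, where 7.35% of all probes did. Its change was -0.39 ± 0.17 (SE), with an unadjusted limma p of 0.0459 and an adjusted p of 0.661. Against PBS, 9 of the 13 were lower with a median of -0.046. Psmg3, a chaperone of core assembly, was lower there without overlap between the groups, at -0.15 ± 0.20 (SE) with an adjusted limma p of 0.958, 1 of 13 genes where 4.59% of all probes did not overlap.

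Of 5 genes that control the subunit genes, 3 of 5 (median 0.030) were higher in AAV-hGRB than in AAV-GFP and 3 of 5 (median 0.0047) than in PBS. Nfe2l1, which encodes NRF1, had 5.61, 5.18, 4.81 and 4.74 on the AAV-hGRB arrays, 4.95, 5.04, 6.43 and 5.40 on the AAV-GFP arrays and 5.07, 4.93, 5.71 and 4.69 on the PBS arrays. The groups overlapped, with changes of -0.37 ± 0.35 (SE) against AAV-GFP and -0.016 ± 0.35 (SE) against PBS. The highest value was that of AAV-GFP 3, and without it the change against AAV-GFP was -0.047. Ddi2, the protease that activates NRF1, had -0.12 and 0.0047. Keap1, the repressor of NRF2, had 4.41, 4.56, 4.55 and 4.39 on the AAV-hGRB arrays, 4.22, 4.20, 3.56 and 4.51 on the AAV-GFP arrays and 4.29, 4.04, 3.88 and 4.23 on the PBS arrays. All AAV-hGRB arrays lay above all PBS arrays, by 0.37 ± 0.21 (SE) with an adjusted limma p of 0.909, and Nfe2l2, which encodes NRF2, did not overlap PBS either, at 0.26 ± 0.17 (SE), where 4.59% of all probes did not overlap.

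Of 10 genes of substrate delivery, 4 of 10 (median -0.016) were higher in AAV-hGRB than in AAV-GFP and 6 of 10 (median 0.11) than in PBS. The shuttle Ubqln2 had 0.36, the segregase Vcp -0.21 and Zfand2a 0.20 against AAV-GFP, or -0.0092, -0.38 and 0.32 without AAV-GFP 3. In this list 0 genes had an unadjusted p under 0.05 in any of the 3 comparisons with all arrays, and 1, Vcp, did against AAV-GFP without AAV-GFP 3.

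Interferon-induced genes, given for comparison, were higher in the same livers. All 14 were higher in AAV-hGRB than in AAV-GFP (median 1.59) and than in PBS (median 1.13), and 10 of 14 had an unadjusted p under 0.05 against AAV-GFP, where 3.35% of all probes did, though 0 passed after adjustment over all probes. Ifit1, Irf7 and Usp18 had 2.50 ± 0.52 (SE), 2.49 ± 0.43 (SE) and 2.23 ± 0.38 (SE) against AAV-GFP. The list had been seen to be high in these arrays before it was taken, so its direction is no independent evidence. Its mean level per array was 2.61 to 3.83 in AAV-hGRB livers, 1.67 to 2.01 in AAV-GFP livers and 1.50 to 2.15 in PBS livers, highest on AAV-hGRB 2 and 3, the arrays that were also highest in Psmb8 and Psmb9. Over the same arrays Psme1 was 6.50 and 6.23, within the range of the AAV-GFP arrays. Psme2 was 7.40 on AAV-hGRB 2, the highest of the 12 arrays and just above AAV-GFP 2 at 7.36, and 7.23 on AAV-hGRB 3.

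No marker of other liver cells passed the test after adjustment, and their directions follow. All 8 Kupffer cell and macrophage markers were higher in AAV-hGRB than in AAV-GFP (median 0.26) and than in PBS (median 0.62). Their mean level was 2.52 to 3.43 in AAV-hGRB livers, 2.30 to 2.98 in AAV-GFP livers and 1.54 to 2.76 in PBS livers. The lowest was PBS 1, and the other PBS arrays had 2.62 to 2.76. All 8 were also higher in AAV-GFP than in PBS (median 0.33). In each comparison 0 of 8 had an unadjusted p under 0.05. Without AAV-GFP 3, 7 of 8 were higher in AAV-hGRB than in AAV-GFP (median 0.32). Of 9 tested T and NK markers (Cd8a was not tested), 6 were higher than in AAV-GFP (median 0.53), with mean levels of -2.410 to -1.556 in AAV-hGRB livers, -2.631 to -2.001 in AAV-GFP livers and -3.025 to -1.957 in PBS livers. An unadjusted p under 0.05 against AAV-GFP, where 3.35% of all probes had one, was found for 3 of 9 T and NK markers, 2 of 6 endothelial, 2 of 5 neutrophil and 2 of 4 dendritic markers (all higher) and 1 of 8 hepatocyte markers (lower). Bst2, a tested dendritic marker, is also in the interferon-induced list, which had been seen to be high before it was taken. Medians against AAV-GFP were 0.38 for 5 tested neutrophil, 0.28 for 4 dendritic, 0.21 for 6 endothelial and -0.24 for 5 B and plasma cell markers. Against PBS the medians in AAV-hGRB were 0.46 for T and NK, -0.40 for neutrophil (0 of 5 higher), 0.46 for dendritic, 0.23 for endothelial, -0.22 for B and plasma cell and -0.15 for hepatocyte markers. In AAV-GFP against PBS all 5 neutrophil markers were lower, 3 of them with an unadjusted p under 0.05, where 1.68% of all probes had one, and 3 without overlap, where 0.94% had none. Without AAV-GFP 3 the neutrophil median in that comparison was -1.21, and the medians in AAV-hGRB against AAV-GFP were 0.81 for neutrophil and 0.057 for B and plasma cell markers. Their part in the values of Psmb8, Psmb9 and the constitutive genes was not tested.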

How the data were processed

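Total RNA of 12 liver samples was labelled and hybridised to 12 Agilent one-colour arrays, 4 per group. Per the file headers the scanner files were made with Agilent Feature Extraction 9.5.3.1 (9.5 per the submitters' processing notes), and their deposited intensity per spot is background-subtracted; the deposited series matrix holds the same intensities (540216 values equal within a relative 1e-06). Groups follow the sample titles. From 43379 spots that are not controls, 41174 probes were averaged, log2 was taken and each array's 75th percentile subtracted. A probe was tested where it was well above background on at least 4 of 12 arrays (26592 probes). The fit was limma 3.58.1 in R 4.3.3 over all 12 arrays, with 9 residual degrees of freedom and p-values adjusted by Benjamini-Hochberg across every probe in the fit. It was tested on simulated data. Symbols came from RefSeq through the accession, otherwise from the array design. Pair differences used exact permutation of 4 against 4 arrays. The number of arrays limits the precision.

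The genes and lists were chosen with earlier results of these data known. Genes named in the text are, per comparison, the 3 with the highest and the 3 with the lowest change, and always the activators, Psmb5 to Psmb10, genes whose probes disagree in sign by over 0.3 each, and genes never well above background; of each further list up to 3 with the largest change against AAV-GFP are named. Other genes, among them those whose groups did not overlap and the members described by role, were named after their values were seen. The arrays lie on 6 slides, and AAV-GFP 4 was alone on the second scan day. Numbered replicates were not treated as pairs. A list of ubiquitin genes is not reported here. RefSeq promoters are of GRCm38.p6, and probe positions are of mm7, per the file headers.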

Additional observations from a re-analysis of the deposited data

Results flagged for a closer look

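In 4 of 75 groups of 4 arrays examined, 1 array lay far from the other 3 (Dixon's test), and chance alone gives about 1 in 20. Across the 41 genes the median deviation on AAV-hGRB 1 was -0.17, against -0.016 to 0.0050 on the other AAV-hGRB arrays. Psma4, an alpha subunit, was at 1.94 on AAV-GFP 3, against 3.46 to 3.56 on the other AAV-GFP arrays. Psmd8, a cap subunit, was at 0.87 on the same array, against 2.72 to 3.06. The difference Psmb10 minus Psmb7 was 4.91 there, against 2.61 to 2.87, and Psmb7 was at its lowest AAV-GFP value there.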

How the results depend on the processing

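No proteasome gene was called, and 0 probes of all tested passed an adjusted limma p of 0.05, in any of 3 comparisons under the 20 alternative settings with a test. The settings were median and quantile scaling, normexp background, no filter and a stricter filter on dim probes, the deposited series matrix, a replicate block, a slide block, the mean over a gene's probes (values with no test), and leaving out each of the 12 arrays. Leaving out 1 array, the median change of the 41 genes lay at -0.24 to 0.10 for AAV-hGRB against AAV-GFP, -0.083 to 0.014 against PBS and -0.12 to 0.23 for AAV-GFP against PBS. Of 63 alternative medians, 62 moved by less than the SD of the median between replicates, 0.25. The exception was 0.23 for AAV-GFP against PBS without AAV-GFP 3. That SD includes AAV-GFP 3, where the median deviation was -0.59, so it is a wide measure. For AAV-hGRB against AAV-GFP, leaving out AAV-GFP 3 moved the median from -0.016 to -0.24 and is counted among the 62. With that move the positive genes went from 18 to 2 of 41, so the count does not show that this median was stable. Of 1171 alternative values of named genes and gene pairs, 459 equal the reported value, mostly because the setting cannot move it (arrays of a group outside the comparison, the replicate block, the filters) or because the series matrix holds the same intensities. Of the other 712, 620 kept their direction and 92 turned it. Chosen after seeing the data, probe position and the further lists were recomputed without AAV-GFP 3, as given with them. The cause was not tested where a direction turned. With median scaling, the change turned in AAV-hGRB against PBS to 0.014 for Psme4 and 0.044 for Psmb6, and in AAV-GFP against PBS to 0.049 for Psme3. With quantile scaling, the change turned in AAV-hGRB against AAV-GFP to 0.093 for Psme1, 0.18 for Psme2 and 0.074 for Psmb7, and in AAV-hGRB against PBS to 0.071 for Psme1, 0.056 for Psme4, 0.012 for Psmb5 and 0.14 for Psmb6, and in AAV-GFP against PBS to -0.022 for Psme1 and -0.016 for Psme1 minus Psme3. With the normexp background, the change turned in AAV-hGRB against AAV-GFP to -0.0034 for Psmd13, -0.066 for Psme4, -0.089 for Psmb10, -0.13 for Psme1 minus Psme3 and -0.074 for Psme2 minus Psme3, and in AAV-hGRB against PBS to -0.091 for Psmb10 and -0.14 for Psme1 minus Psme3, and in AAV-GFP against PBS to -0.043 for Psme1, -0.0019 for Psmb10 and -0.012 for Psme1 minus Psme3. With the slide as a block, the change turned in AAV-hGRB against AAV-GFP to 0.091 for Psmb7 and -0.19 for Psmb10, and in AAV-hGRB against PBS to -0.10 for Psme2, 0.0076 for Psme4 and -0.25 for Psmb10, and in AAV-GFP against PBS to -0.10 for Psme1, 0.067 for Psme3, -0.11 for Psmb8, -0.052 for Psmb9 and -0.060 for Psmb10. With the mean over probes, the change turned in AAV-hGRB against AAV-GFP to 0.0071 for Psme2, and in AAV-hGRB against PBS to 0.17 for Psme4. Leaving out 1 array, AAV-hGRB against AAV-GFP ranged over -0.20 to 0.56 for Psmb10 minus Psmb7, -0.16 to 0.14 for Psme1 minus Psme3, -0.070 to 0.18 for Psme2 minus Psme3, -0.18 to 0.59 for Psma3, -0.079 to 0.46 for Psma4, -0.11 to 0.10 for Psmb10, -0.46 to 0.21 for Psmb7, -0.24 to 0.63 for Psmd13 and -0.20 to 0.16 for Psme4. Leaving out 1 array, AAV-hGRB against PBS ranged over -0.14 to 0.21 for Psme1 minus Psme3, -0.058 to 0.19 for Psmb10, -0.075 to 0.068 for Psmb6, -0.22 to 0.042 for Psmb7, -0.19 to 0.054 for Psme1 and -0.14 to 0.079 for Psme4. Leaving out 1 array, AAV-GFP against PBS ranged over -0.36 to 0.40 for Psmb10 minus Psmb7, -0.43 to 0.013 for Psmb9 minus Psmb6, -0.14 to 0.20 for Psme1 minus Psme3, -0.069 to 0.18 for Psmb10, -0.35 to 0.33 for Psmb7, -0.11 to 0.18 for Psmb8, -0.049 to 0.38 for Psmb9, -0.83 to 0.15 for Psmd13, -0.67 to 0.056 for Psmd8, -0.080 to 0.17 for Psme1, -0.13 to 0.10 for Psme3 and -0.20 to 0.16 for Psme4. Replicate numbers in the labels name samples, and whether equal numbers share a source is not stated. Same-numbered samples' deviations correlated at -0.43 to 0.26, -0.26 to 0.24 and -0.26 to 0.59 in the 3 comparisons, and 0, 1 and 2 of 4 correlated best with their own number. With the replicate block the medians were -0.016, -0.045 and -0.028 and 0 probes were called. Pair differences had no block or filter alternative. With 4 arrays a group a gene's 95% interval reached 0.63 log2 to either side at the median gene.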
